A study of Mus musculus with 3 samples.

Results

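The 9 genes described here, Vegfa, Vegfc, Angpt1, Angpt2, Nrp1, Nrp2, Flt1, Kdr and Tek, encode the VEGF and angiopoietin ligands, co-receptors and receptors through which podocytes and glomerular endothelium signal to each other. They were taken as a named list from 21887 protein-coding genes, and each was assigned every ChIP-seq summit that lay inside its RefSeq GRCm38 span or within 50 kb of either end. Chromatin immunoprecipitation followed by sequencing had been carried out with an antibody to the forkhead factor Foxc1 (D8A6, CST) and with another to Foxc2 (AF6989, R&D Systems), with 1 library each. Both libraries, and 1 of input DNA that was not analysed here, came from kidney glomeruli of C57BL/6 mice aged 8 weeks, with no treatment or mutant allele in the labels. The series title places its question in the adult podocyte, but bead-isolated glomeruli also hold endothelial and mesangial cells, so binding in few cells and weak binding in many cannot be told apart. The labels do not say how many mice a library holds. As each antibody has a single library, no spread between replicates could be measured. The intervals below cover counting error only and treat genes or peaks as independent. The genes were chosen with earlier results of these data known, so the intervals are descriptions and not tests. Peak lists carry no expression values, so the labelled tissue could not be checked against marker levels.

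In the glomerulus, podocytes secrete Vegfa, which crosses the basement membrane and acts on the receptor Kdr (VEGFR2) of the endothelium, while Flt1 (VEGFR1) binds the same ligand and in its soluble form traps it. The neuropilins Nrp1 and Nrp2 are co-receptors that bind VEGF ligands as well as class 3 semaphorins. Angpt1 activates the endothelial receptor Tek (Tie2), and Angpt2 competes with it, while Vegfc is best known as a growth factor of lymphatic vessels.

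Foxc1 summits were assigned to 5 of the 9 genes and Foxc2 summits to 3, and the genes with a Foxc2 summit (Vegfa, Nrp1 and Nrp2) all had a Foxc1 summit as well. The Foxc1 share was 55.6% (exact Clopper-Pearson 95% interval 21.2 to 86.3%), against 29.3% of all protein-coding genes, and the Foxc2 share was 33.3% (7.49 to 70.1%), against 23.2%. Both intervals hold the value of all genes, so at 9 genes no difference from the genome can be read. Summits of both antibodies were found at 3 of the 9 genes, against 12.5% of all protein-coding genes, and 4 of the 9 had a summit of neither, against 60.1%. The 9 genes are long, with a median span of 115 kb against 17.2 kb for all protein-coding genes, and a longer span can collect more peaks. Among genes of a span within 1.5 times that of a member, the Foxc1 share ran from 28.7% (Vegfa) to 48.1% (Angpt1). In all, 13 Foxc1 peaks and 6 Foxc2 peaks were assigned, and no peak was assigned to more than 1 of the 9. By role, both co-receptors had summits of Foxc1 and of Foxc2. The Foxc2 call at Nrp1 rests on 1 peak with a −log10 q of 3.5. Of the 4 ligands, 2 had a Foxc1 summit, and 1 of these, Vegfa, also had Foxc2 summits. Of the 3 receptor tyrosine kinases, 1 had a Foxc1 summit, while the Foxc2 list gave 0.

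**Figure D1:**
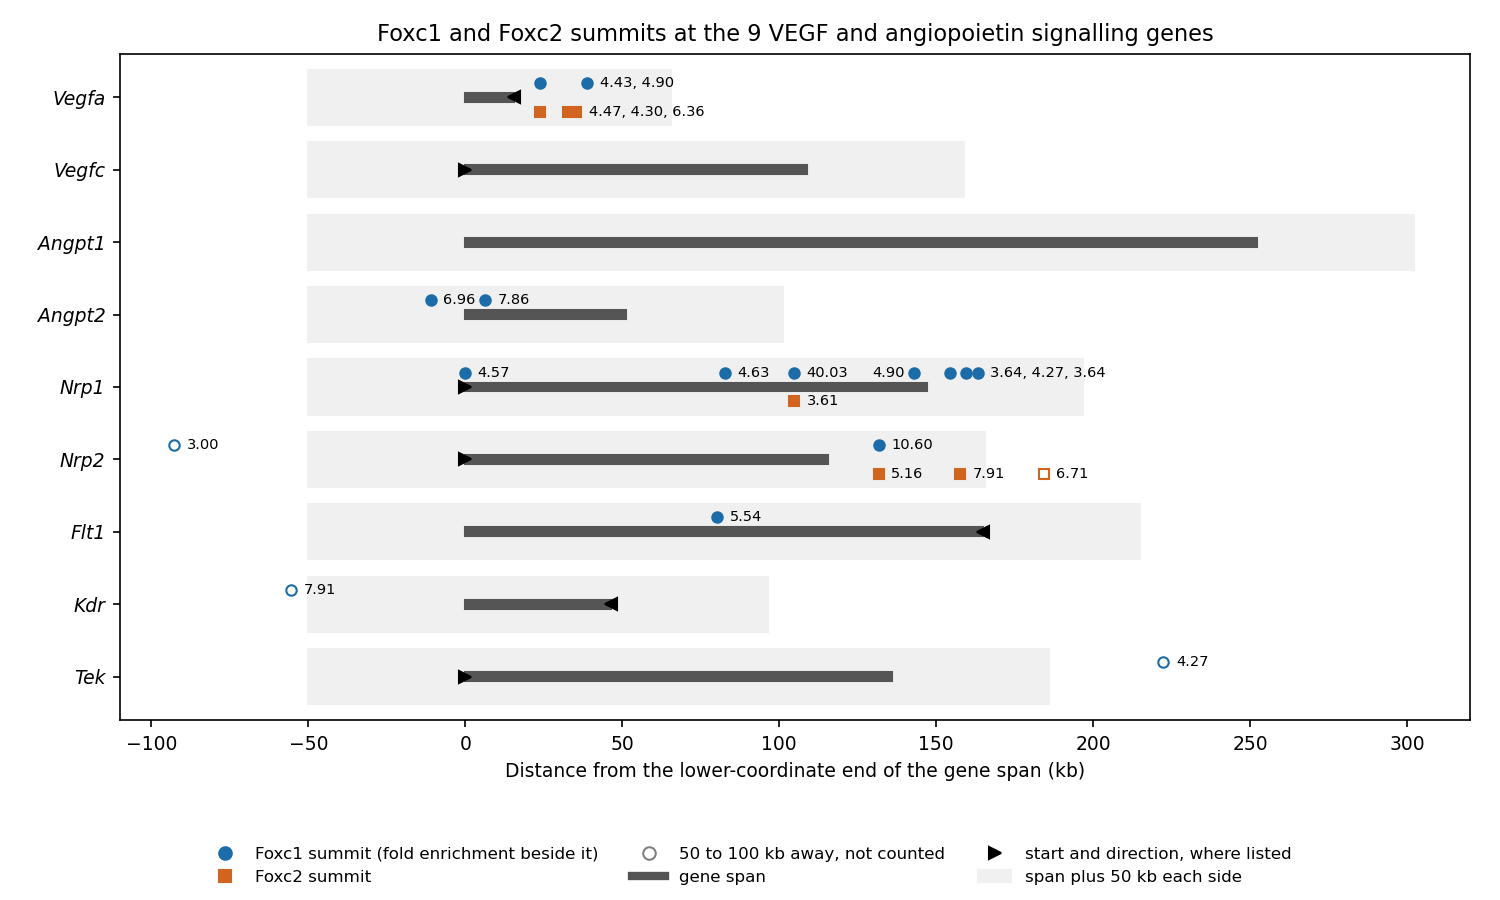
Each row is 1 of the 9 genes, drawn to scale from the lower-coordinate end of its span (x axis, kb), with Foxc1 summits above the gene, Foxc2 summits below it and the fold enrichment of each peak beside its summit (given in order of position where several stand close). Nrp1 holds the fold 40.03 peak of Foxc1, all 5 summits of Vegfa lie on the side of its start, and open symbols at Nrp2, Kdr and Tek lie between 50 and 100 kb away and were not counted.

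Only 1 of the 19 assigned summits lay within 1 kb of a transcription start listed in the RefSeq promoter table, which made 1 of 13 for Foxc1 and 0 of 6 for Foxc2, against 11.1 and 53.7% of the summits of each list on the chromosomes in that table. This was a Foxc1 summit between Nrp1 and the long non-coding RNA gene A930035F09Rik, which run in opposite directions with 354 bases between their spans. The sequences of the start windows on both sides, taken from the same table (GRCm38.p6) and written 5′ to 3′ along the strand of each gene, are shown because this is the only place where a peak of these genes can be read base by base. Each window runs from 250 bases before to 50 bases after a listed start, and capitals mark the bases inside the Foxc1 peak (chr8:128358304-128358628, fold 4.57).
A930035F09Rik, minus strand, chr8:128358188-128358487: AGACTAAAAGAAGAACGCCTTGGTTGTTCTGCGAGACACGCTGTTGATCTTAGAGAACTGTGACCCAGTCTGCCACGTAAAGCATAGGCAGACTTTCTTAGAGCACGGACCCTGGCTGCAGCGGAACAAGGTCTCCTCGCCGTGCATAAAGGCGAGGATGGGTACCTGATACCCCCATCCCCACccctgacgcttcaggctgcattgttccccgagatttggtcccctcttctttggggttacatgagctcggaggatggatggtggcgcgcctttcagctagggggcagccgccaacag
Nrp1, plus strand, chr8:128358823-128359122: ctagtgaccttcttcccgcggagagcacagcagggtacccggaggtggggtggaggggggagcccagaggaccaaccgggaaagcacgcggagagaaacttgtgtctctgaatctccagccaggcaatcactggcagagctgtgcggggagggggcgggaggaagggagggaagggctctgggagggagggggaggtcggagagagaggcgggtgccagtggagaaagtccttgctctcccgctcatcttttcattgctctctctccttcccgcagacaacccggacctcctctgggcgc
The summit stood at the second base of the A930035F09Rik window, 249 bases upstream of that gene's listed start. It was 105 bases outside the Nrp1 span and 587 bases upstream of the Nrp1 start in the table. The peak covered 184 bases of the A930035F09Rik window and ended 195 bases short of the Nrp1 window. A forkhead core was searched on both strands as any 7 bases that open with A or G, go on with C or T, then AAA, then C or T, and end with A, such as GTAAACA, and no other motif was searched. Neither window held one, while 27.5% of all 32851 windows did. The table held 8 windows for 7 of the 9 genes (Vegfa with 2), and 0 of the 8 held a core. With so few windows, no lack of cores can be read from this count. Their median GC content was 63.0%, against 52.7% over all windows. Among windows that contained a summit, 133 of 221 with a Foxc1 summit held a core (60.2%) and 103 of 808 with a Foxc2 summit did (12.7%), at median GC contents of 59.0 and 70.3%. The summits of Vegfa, Angpt2, Nrp2, Flt1 and the rest of Nrp1 lay outside the windows, so their letters were not read.

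Vegfa (chromosome 17, 46016993 to 46032377, minus strand) had 2 Foxc1 peaks and 3 Foxc2 peaks, all upstream of its start and none inside the gene. The Foxc1 peaks had folds over local background of 4.43 at 8.4 kb and 4.90 at 23.5 kb from the start. The Foxc2 peaks had folds of 4.47 at 8.4 kb, 4.30 at 17.3 kb and 6.36 at 19.9 kb. The peaks of both antibodies at 8.4 kb had their summits at the same base (46040778) and shared 246 bases of widths of 306 and 254 bases. The summits of both antibodies together spanned 15.1 kb, and the Foxc2 peaks at 17.3 and 19.9 kb lay between the Foxc1 summits without a Foxc1 peak under them. The Foxc2 peak of fold 6.36 stood higher than 93.6% of the peaks of its list, whereas the Foxc1 peaks of Vegfa stood above 34.6 and 48.7% of theirs. No other annotated gene of any kind lay within 50 kb of Vegfa in the table used, so these peaks had no nearer candidate by distance. Of protein-coding genes with a span within 1.5 times that of Vegfa, 7.49% had 2 or more Foxc1 summits and 2.07% had 3 or more Foxc2 summits.

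Angpt2 (chromosome 8, 18690263 to 18741562) had 2 Foxc1 peaks and 0 Foxc2 peaks. A Foxc1 peak of fold 7.86 lay inside the gene, 6.39 kb from its lower-coordinate end (18696449 to 18696872). Another of fold 6.96 lay 11.1 kb beyond that end (18679024 to 18679445). Both stood in the upper part of the Foxc1 list, above 82.2 and 77.2% of its peaks. Both summits also lay inside Mcph1, a gene of chromosome condensation whose span contains all of Angpt2, so distance alone does not assign them to Angpt2. The nearest Foxc2 summit was 1043 kb away. Of genes of like span, 9.80% had 2 or more Foxc1 summits.

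Vegfc and Angpt1 had no summit of either antibody within 50 kb. For Vegfc (chromosome 8, 54077532 to 54186454) the nearest summits were 245 kb away for Foxc1, with a fold of 3.48, and 3223 kb away for Foxc2. For Angpt1 (chromosome 15, 42424667 to 42676977), the longest of the 9 genes at 252 kb, they were 2388 kb away for Foxc1 and 636 kb away for Foxc2. Among genes of a span like that of Angpt1, 48.1% had a summit of Foxc1 and 28.4% one of Foxc2. Among genes of a span like that of Vegfc these shares were 42.3 and 30.5%. At unknown sequencing depth, a peak missing from a list says only that none was called there.

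Nrp1 (chromosome 8, 128358591 to 128505476, plus strand) carried the most peaks of the 9 genes, with 7 for Foxc1 and 1 for Foxc2. The strongest Foxc1 peak had a fold of 40.03 and ranked 10 of 5207 in its list (128462812 to 128463605, 794 bases wide). It lay inside the gene, 71.2% of the way along the span and 42.3 kb from its far end, where the long non-coding RNA gene Gm32643 is also annotated. The Foxc2 peak of Nrp1 lay wholly under it, 228 bases wide, with its summit 102 bases away. That Foxc2 peak had a fold of 3.61, higher than 26.0% of its list, while the Foxc1 peak was higher than 99.8% of its own. Folds come from separate backgrounds in each list, so these ranks do not measure a difference in binding between the factors.

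The other 6 Foxc1 peaks of Nrp1 had folds between 3.64 and 4.90, none above the list's median of 4.90. The peak at the start, described above, had a fold of 4.57. Inside the gene stood a peak of fold 4.63 at 82.6 kb from the lower end and a peak of fold 4.90 at 3.85 kb before the upper end. Beyond the upper end, downstream, stood peaks of fold 3.64 at 7.33 kb, 4.27 at 12.6 kb and 3.64 at 16.4 kb. The last 4 Foxc1 summits along the chromosome thus lay within 20.2 kb, and no Foxc2 peak was called among them. Of all protein-coding genes, 33 (0.151%) had 7 or more Foxc1 summits, and of 1614 genes of a span like that of Nrp1, 5 did (0.310%), Nrp1 included. No other protein-coding gene lay within 50 kb of Nrp1.

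Nrp2 (chromosome 1, 62703317 to 62818692, plus strand) had 1 Foxc1 peak and 2 Foxc2 peaks, all downstream of the gene. The Foxc1 peak, of fold 10.60, lay 16.3 kb past the end (62834720 to 62835166) and stood above 90.3% of its list. A Foxc2 peak of fold 5.16 lay wholly within it, its summit 32 bases away, inside the long non-coding RNA gene Gm4208. The other Foxc2 peak, 42.3 kb past the end (62860834 to 62861214), had a fold of 7.91 and ranked 61 of 2878, the highest rank of the 6 Foxc2 peaks of these genes, and no Foxc1 peak overlapped it. A Foxc2 peak of fold 6.71 at 68.9 kb fell outside the 50 kb limit. The Foxc2 summits downstream of Nrp2 thus had folds of 5.16, 7.91 and 6.71 at 16.3, 42.3 and 68.9 kb, and the protein-coding gene with the nearest end was Nrp2 for each. Of genes of like span, 42.4% had a Foxc1 summit and 8.97% had 2 or more Foxc2 summits.

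Of the receptor tyrosine kinases, Flt1 (chromosome 5, 147561604 to 147726438, minus strand) had 1 Foxc1 peak of fold 5.54 near the middle of the gene, 84.7 kb from its upper end (147641550 to 147641949), and 0 Foxc2 peaks. The peak stood above 61.3% of the Foxc1 list, and of genes of like span 45.7% had at least 1 summit of Foxc1 and 29.6% one of Foxc2. Kdr (chromosome 5, 75932827 to 75979072, minus strand) had no summit within 50 kb. A Foxc1 peak of fold 7.91 lay just outside that limit, 55.5 kb past the downstream end of Kdr (75877088 to 75877495), and Kdr was the nearest protein-coding gene. The Foxc2 summit of Nrp2 at 42.3 kb was the farthest inside the limit. Tek (chromosome 4, 94739086 to 94874976, plus strand) had no summit within 50 kb, and its nearest Foxc1 summit, of fold 4.27, was 86.4 kb away and closer to Mysm1. The nearest Foxc2 summits were 131 kb from Flt1, 610 kb from Kdr and 178 kb from Tek. Of genes of a span like that of Kdr, 32.5% had a summit of Foxc1 and 25.4% one of Foxc2, and for Tek these were 44.2 and 29.7%.

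**Figure D2:**
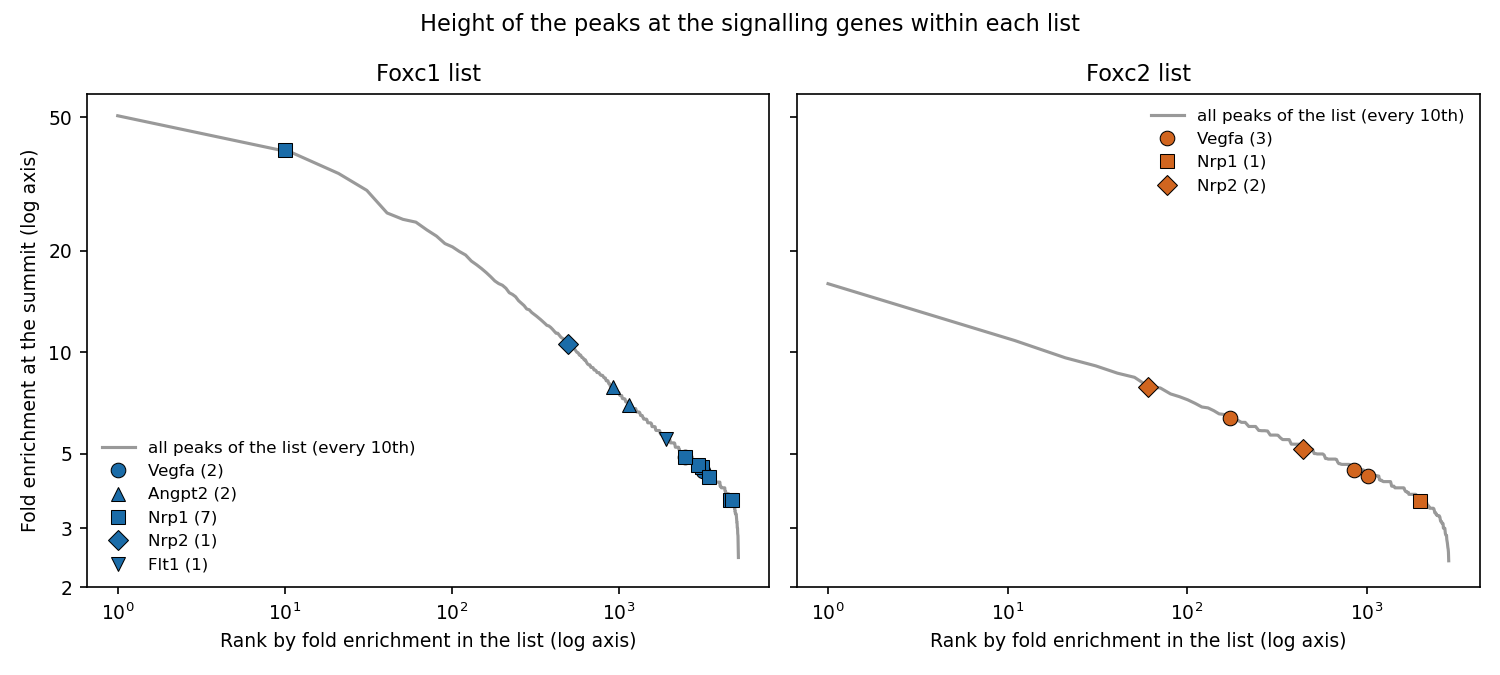
Fold enrichment at the summit (y axis, log scale) against rank in the list (x axis, log scale) for the 13 Foxc1 peaks and 6 Foxc2 peaks of the signalling genes, on the curve of all 5207 Foxc1 and 2878 Foxc2 peaks. The Nrp1 peak of fold 40.03 stands apart at rank 10 of the Foxc1 list, and the Nrp2 peak of fold 7.91 leads among the Foxc2 peaks of these genes.

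The 13 Foxc1 peaks of the 9 genes had folds between 3.64 and 40.03, and the highest stood at Nrp1 (40.03), Nrp2 (10.60) and Angpt2 (7.86 and 6.96). Their median fold was 4.90, equal to that of the whole list, and 5 of 13 reached a fold of 5 (38.5%, exact 95% interval 13.9 to 68.4%), against 47.9% of all Foxc1 peaks. The Foxc2 peaks had a median fold of 4.81, against 3.97 for the whole list, and 3 of 6 reached a fold of 5 (exact interval 11.8 to 88.2%), against 18.1%. Peaks of both antibodies overlapped at Vegfa, Nrp1 and Nrp2. These were 3 of 13 Foxc1 peaks (23.1%, exact interval 5.04 to 53.8%), against 8.20% of the whole Foxc1 list, and 3 of 6 Foxc2 peaks (11.8 to 88.2%), against 14.8% of the whole Foxc2 list. Each of these intervals held the value of the whole list, so no difference can be read from so few peaks.

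The Foxc2 summits of the 9 genes lay away from gene ends. Of the 6, 0 lay within 1 kb of an end of any protein-coding gene (exact 95% upper bound 45.9%), against 52.4% of the whole Foxc2 list, and their distances ran from 8.4 to 42.3 kb. The bound treats the 6 as independent, but they stand at only 3 genes, Vegfa, Nrp1 and Nrp2. None of these genes had another protein-coding gene within 50 kb, so no difference from the list can be read from the bound. Of the 9 genes, 5 had no other protein-coding gene within 50 kb, compared with 16 of the 44 further pathway genes described below. The part of this spacing in the distances was not tested. Of the 13 Foxc1 summits, 1 lay within 1 kb of such an end, at Nrp1 (7.69%, exact interval 0.195 to 36.0%), against 10.9% of the Foxc1 list. Inside the spans of the 9 genes lay 5 of 13 Foxc1 summits, 3 of them in Nrp1, and 1 of 6 Foxc2 summits, also in Nrp1. With the Angpt2 peak that lies in Mcph1 counted, 6 of 13 Foxc1 summits lay inside some protein-coding gene, against 56.4% of the Foxc1 list. For Foxc2 it was 1 of 6 summits, against 66.3% of the Foxc2 list. The exact intervals were 19.2 to 74.9% for Foxc1 and 0.421 to 64.1% for Foxc2. The Foxc2 interval ends below 66.3%, but its 6 summits stand at only 3 genes, so no difference can be read from it.

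**Figure D3:**
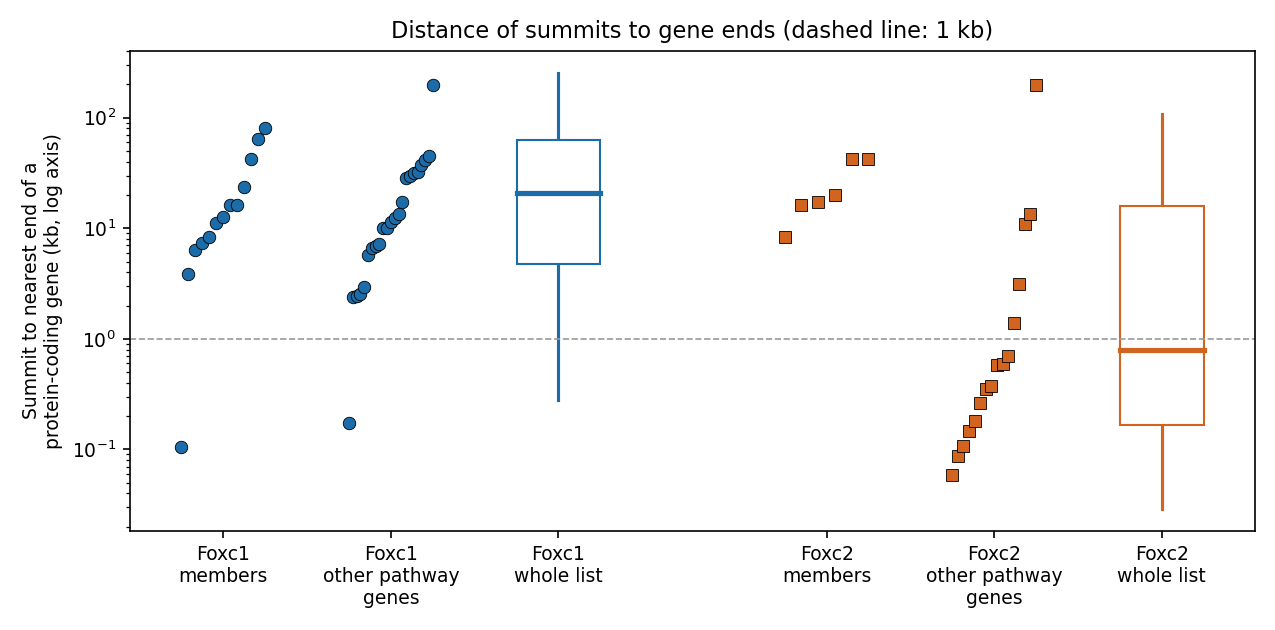
Distance from each summit to the nearest end of any protein-coding gene (y axis, kb, log scale), with a point per peak for the 9 genes and for the 44 other pathway genes, and with a box (quartiles, median line, whiskers from the 5th to the 95th percentile) for each whole list. The 6 Foxc2 summits of the 9 genes all lie at 8.4 kb or more, while the median of the Foxc2 list is 0.797 kb.

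Among 44 further pathway genes, 15 had a Foxc1 summit (34.1%, exact interval 20.5 to 49.9%) and 13 a Foxc2 summit (29.5%, 16.8 to 45.2%). These shares were close to the 29.3 and 23.2% of all protein-coding genes. Of the 44, 14 belong to other signals between glomerular cells, so the shares are not those of VEGF and angiopoietin signalling alone. The neuropilin partners (semaphorins, plexins and Gipc1) had Foxc1 summits at 4 of 11 genes and Foxc2 summits at 5 of 11. Plxna4, a plexin that signals with neuropilins, had a Foxc1 peak of fold 6.96 and a Foxc2 peak of fold 6.88 at the same place, with summits 14 bases apart. Plxna2 had 3 Foxc1 peaks, the strongest of fold 11.55, and Plxna1 had 1. Within Sema3g stood Foxc2 peaks of fold 6.40 and 5.67, and 34.7 kb away, inside Nisch, a Foxc1 peak of fold 9.49. Sema3e had a Foxc2 peak 265 bases from its start, Sema3f had 2 Foxc2 peaks, 1 of them 147 bases from an end of Gnai2, and Gipc1, whose protein binds the tail of Nrp1, had a Foxc2 peak of fold 3.95, 34 kb beyond its upper-coordinate end.

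Of the remaining VEGF ligands and the receptor Flt4, 2 of 4 had a Foxc1 summit, and the Foxc2 list gave 0. The exact intervals were 6.76 to 93.2%, against 29.3% of all protein-coding genes, and 0 to 60.2%, against 23.2%. Both held the value of all genes, so no difference can be read from 4 genes. Vegfb had a Foxc1 peak of fold 7.44 inside Bad, and Pgf, the placental growth factor that binds Flt1, had Foxc1 peaks of fold 7.59 and 3.96. On the angiopoietin side, Angpt4 had 2 Foxc1 peaks and Tie1, the partner receptor of Tek, had 1 of fold 3.96. The phosphatase gene Ptprb had none. Of 6 regulators of Vegfa transcription, Epas1 (HIF-2 alpha) had 2 Foxc1 peaks inside the gene, of fold 5.38 and 4.75, Hif1a had 1 of fold 3.44 at 45.5 kb, and Egln1, a hydroxylase that marks HIF proteins for degradation, had a Foxc2 peak of fold 4.83. Of 14 other signals between glomerular cells, Cxcl12 had 2 Foxc1 peaks, Ephb4 had 1, its ligand gene Efnb2 had a Foxc2 peak, and Pdgfrb, the mesangial PDGF receptor, had a peak of each antibody at the same place with folds of 5.22 and 6.02.

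Of 6 effectors of VEGF receptors, 2 had Foxc1 summits, Akt1 and Ptpn6 (exact interval 4.33 to 77.7%), against 29.3% of all genes, and 5 had Foxc2 summits (35.9 to 99.6%), against 23.2%. With a −log10 q of 5 or more, the Foxc2 count was 2 of 6, Akt1 and Ptpn6, since the peaks of Plcg1 and Shb had a −log10 q of 2.96 each and that of Nos3 had 3.5. The share of all genes was not computed at that threshold, so this count cannot be set against the genome. The Foxc2 peak of Nos3 lay nearest to an end of its neighbour Slc4a2, and that of Ptpn6 to an end of Phb2. Plcg1 and Shb had Foxc2 peaks of fold 3.44 each, at 354 and 59 bases from their starts. Akt1 had 3 Foxc1 and 2 Foxc2 peaks, and near its listed starts a Foxc1 summit stood 172 bases upstream of one and a Foxc2 summit 11 bases upstream of another. Over the 44 genes, 11 of 16 Foxc2 summits lay within 1 kb of a gene end (68.8%, exact interval 41.3 to 89.0%), against 52.4% of the list and 0 of 6 at the 9 genes above.

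Start windows of these further genes that contained a summit are printed to set beside the Nrp1 window, with capitals for the bases inside the peak. They were chosen after their values were seen, as all windows of a pathway gene with a summit of that gene inside.
Akt1, minus strand, chr12:112674835-112675134, Foxc1 peak of fold 5.54: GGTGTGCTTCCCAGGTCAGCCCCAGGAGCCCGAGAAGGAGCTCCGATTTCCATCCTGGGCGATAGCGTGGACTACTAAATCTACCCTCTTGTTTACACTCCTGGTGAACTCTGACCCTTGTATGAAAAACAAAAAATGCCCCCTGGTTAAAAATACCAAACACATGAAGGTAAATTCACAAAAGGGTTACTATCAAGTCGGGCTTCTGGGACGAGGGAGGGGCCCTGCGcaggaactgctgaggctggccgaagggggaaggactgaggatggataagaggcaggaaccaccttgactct
Akt1, minus strand, chr12:112674227-112674526, Foxc2 peak of fold 4.63: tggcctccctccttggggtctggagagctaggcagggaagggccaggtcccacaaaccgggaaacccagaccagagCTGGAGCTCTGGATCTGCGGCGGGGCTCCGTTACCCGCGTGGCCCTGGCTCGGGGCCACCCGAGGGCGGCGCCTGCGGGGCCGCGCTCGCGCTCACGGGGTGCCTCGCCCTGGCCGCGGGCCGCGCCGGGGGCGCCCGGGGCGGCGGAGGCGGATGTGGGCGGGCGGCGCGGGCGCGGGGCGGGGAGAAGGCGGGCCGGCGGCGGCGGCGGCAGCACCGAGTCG
Efnb2, minus strand, chr8:8661193-8661492, Foxc2 peak of fold 3.61: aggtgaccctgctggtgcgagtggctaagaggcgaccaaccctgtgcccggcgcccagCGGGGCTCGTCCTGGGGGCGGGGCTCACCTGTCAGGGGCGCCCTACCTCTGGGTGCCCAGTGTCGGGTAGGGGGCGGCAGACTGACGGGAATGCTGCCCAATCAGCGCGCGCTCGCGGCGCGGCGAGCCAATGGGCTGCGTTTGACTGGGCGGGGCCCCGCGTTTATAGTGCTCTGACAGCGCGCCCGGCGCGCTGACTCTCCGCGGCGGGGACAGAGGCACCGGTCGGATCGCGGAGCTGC
Egln1, minus strand, chr8:124949205-124949504, Foxc2 peak of fold 4.83: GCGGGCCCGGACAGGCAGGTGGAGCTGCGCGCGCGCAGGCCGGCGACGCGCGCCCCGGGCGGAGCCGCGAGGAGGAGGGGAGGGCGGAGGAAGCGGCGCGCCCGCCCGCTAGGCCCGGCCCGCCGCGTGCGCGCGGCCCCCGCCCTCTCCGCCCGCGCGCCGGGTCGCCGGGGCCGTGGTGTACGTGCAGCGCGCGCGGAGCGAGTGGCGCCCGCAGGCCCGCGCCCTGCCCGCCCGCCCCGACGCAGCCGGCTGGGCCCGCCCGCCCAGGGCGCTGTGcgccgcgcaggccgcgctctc
Shb, minus strand, chr4:45530779-45531078, Foxc2 peak of fold 3.44: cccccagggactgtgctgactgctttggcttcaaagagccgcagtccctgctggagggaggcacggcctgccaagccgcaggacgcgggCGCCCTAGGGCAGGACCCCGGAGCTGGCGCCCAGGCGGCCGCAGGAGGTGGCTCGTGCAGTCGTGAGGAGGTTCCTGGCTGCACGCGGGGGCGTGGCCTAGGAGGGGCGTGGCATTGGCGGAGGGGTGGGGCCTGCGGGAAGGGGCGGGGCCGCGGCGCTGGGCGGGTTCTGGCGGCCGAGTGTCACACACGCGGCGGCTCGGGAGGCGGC
The Akt1 window with the Foxc1 peak held 1 forkhead core, TGTTTAC at base 90 (GTAAACA on the other strand), 11 bases past the summit at base 79, and its GC content was 52.3%. The 4 windows with a Foxc2 peak held no core, and their GC contents ran from 72.3 to 86.0%. A match is a description of these letters and not a measured binding site.

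**Figure D4:**
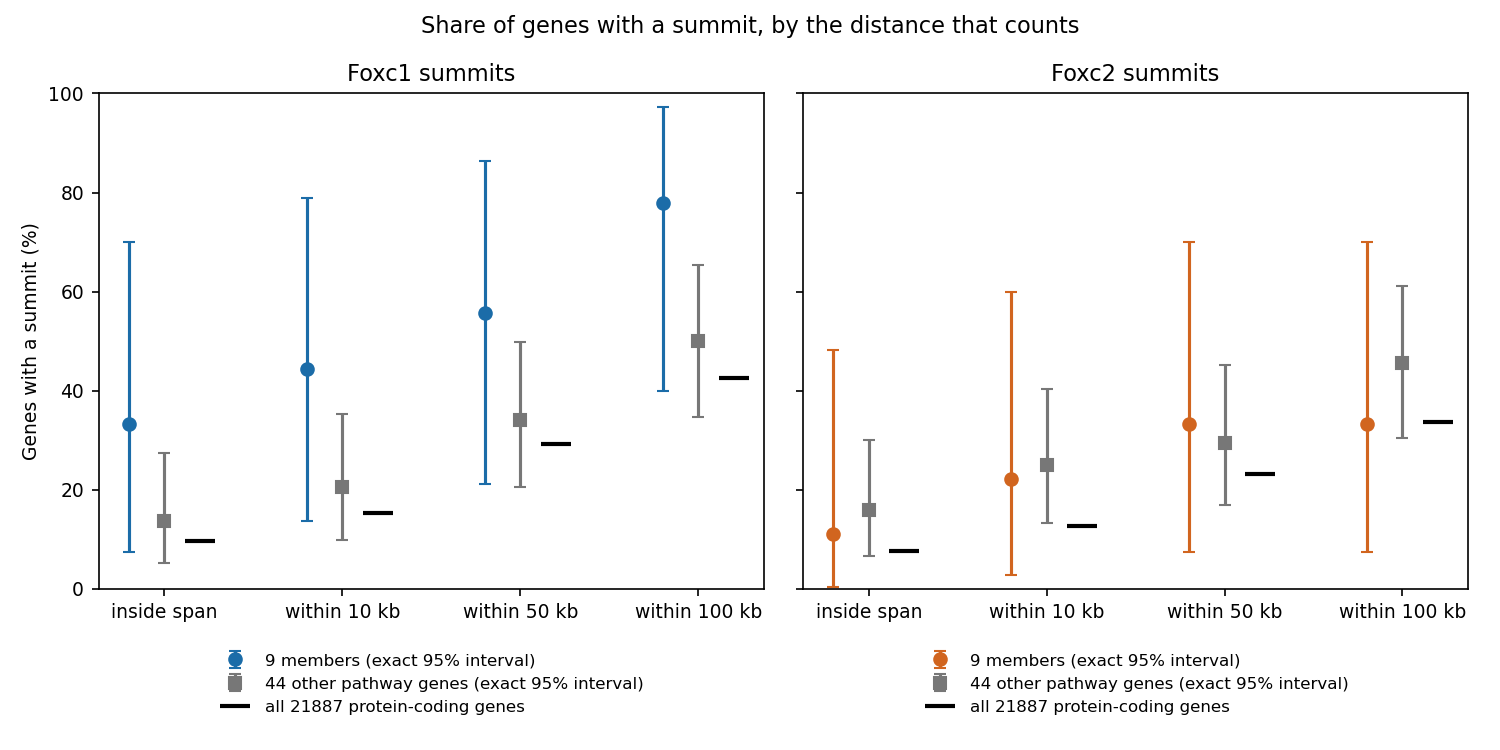
Share of genes with a Foxc1 summit (left panel) or a Foxc2 summit (right panel) on the y axis, for summits inside the span and within 10, 50 and 100 kb, for the 9 genes, the 44 other pathway genes and all protein-coding genes; bars are exact 95% intervals. The Foxc1 share of the 9 genes was 33.3, 44.4, 55.6 and 77.8% as the distance grew, against 9.53, 15.2, 29.3 and 42.6% of all genes. The distances are nested, and the 9 genes have a longer median span (115 kb) than all genes (17.2 kb).

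The share of the 9 genes with a Foxc1 summit stood above that of all genes at every distance tried, with 3 genes for summits inside the span, 4 within 10 kb, 5 within 50 kb and 7 within 100 kb. The intervals held the value of all genes at each of these distances. The distances are nested, so the shares largely repeat the same summits. The 9 genes are also longer than most. Within 50 kb, the Foxc1 share of genes of a span like that of a member ran from 28.7% (Vegfa) to 48.1% (Angpt1). The Foxc2 counts were 1, 2, 3 and 3 genes, 11.1, 22.2, 33.3 and 33.3%, against 7.58, 12.7, 23.2 and 33.6% of all genes.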

How the data were processed

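ChIP-seq peak lists of 1 Foxc1 and 1 Foxc2 library were analysed. Bowtie2, MACS2 and the mm10 build are named, per the submitters' processing notes. Versions, settings, the control used and any pooling are not stated in these sources. For each peak the deposited lists give a fold over local background (a ratio made by the authors' peak caller), a deposited −log10 p-value, a deposited −log10 q-value, a deposited score that was not used, and a summit offset. They held 5213 Foxc1 and 2881 Foxc2 peaks, of which 5207 and 2878 on chromosomes 1 to 19, X and Y were used. They carry no read counts, so the depth is unknown.

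Gene spans came from RefSeq GRCm38.p6, the assembly of mm10. Strand and start positions came from its promoter table, which had windows for 7 of the 9 genes. Exons were not used here. Overlap meant 1 shared base pair. Genes of like span are protein-coding genes within 1.5 times a gene's span. The members and lists were chosen with earlier results of these data known, so the intervals are descriptions and nothing was tested. All 9 members are named, as is every other pathway gene with a summit. The assignment rule was checked on simulated data with planted summits. Python 3.11.15, pandas 2.3.3 and scipy 1.17.1 were used. Alternatives covered distance, peak threshold, overlap and competition between neighbours.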

Additional observations from a re-analysis of the deposited data

How the results depend on the processing

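Of 50 alternative values for 9 counts, 30 stayed within 1.5 times the value reported. With summits inside the gene span only, Foxc1 summits were left at 3 members and Foxc2 summits at 1. The peaks left were 5 for Foxc1, 1 of them shared, and 1 for Foxc2. The other pathway genes gave 6 for Foxc1 and 7 for Foxc2. These were 33.3 and 11.1% of members and 13.6 and 15.9% of pathway genes, against 9.53 and 7.58% of all genes. Within 10 kb, the members had 8 Foxc1 and 2 Foxc2 peaks. At that distance 9 pathway genes had a Foxc1 summit (20.5%), against 15.2% of all genes. Within 100 kb, 20 pathway genes had a Foxc2 summit (45.5%), against 33.6% of all genes. With peaks of fold 5 or more, the members had 5 Foxc1 peaks, 3 of them inside a span, and 1 of the 5 was shared. The members had 3 Foxc2 peaks, 0 of them inside. At that fold 3 of the 44 pathway genes had a Foxc2 summit, against 3.90% of all genes. With a −log10 q of 5 or more, 2 members and 7 pathway genes had a Foxc2 summit, and 0 Foxc2 summits lay inside a member. Shared Foxc1 peaks of the members then numbered 2. They also numbered 2 with summits within 100 bases of each other and with a reciprocal overlap of at least 50%. When a summit counted only for the nearest protein-coding gene, 9 pathway genes had a Foxc1 summit. For the q threshold and the nearest gene, no share of all genes was computed. The distance, fold and q settings count fewer or more peaks, while the overlap and nearest-gene settings change how the same peaks are matched. No paired analysis was possible because each antibody has 1 library, and for the same reason no library could be left out.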

Other observations

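The genes of a span like that of Nrp1 with 7 or more Foxc1 summits, named here after their values were seen, were Rbpms with 14, Arid5b with 9, Itgb5 with 8, and Ccdc192 and Nrp1 with 7 each. Foxc2 summits at these genes numbered 6 at Rbpms, 1 at Arid5b, 8 at Itgb5, 0 at Ccdc192 and 1 at Nrp1. Rbpms encodes an RNA-binding protein, Arid5b a DNA-binding protein and Itgb5 an integrin beta chain.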
